A study of Mus musculus with 12 samples.

Results

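Ribosome footprints of Arf-/- -shSCR MEFs were set against those of the libraries labelled WT-shARF, so that 2 treatments meant to remove the ARF tumor suppressor, knockout and a short hairpin RNA, were compared directly. The comparison used the 4 ribosome profiling libraries of these groups out of the 12 libraries of the series, and all genes counted in them. MEFs are fibroblasts grown from mouse embryos, and all libraries were made at passage 4. In Arf-/- mice exon 1β of Cdkn2a, the first exon of the ARF transcript, is replaced by a neo cassette, and the cells carried the scrambled hairpin shSCR. The other cells were WT and, by their label, carried shARF. Both hairpins came in a lentivirus and the transduced cells were selected with puromycin. The labels give the strain as B6.129X1-Cdkn2atm1Cjs/KaiJ for the knockout and C57BL/6J for the WT cells, while the study's methods give B6129SF2/J for the WT cells. The groups therefore differed in genotype, strain and hairpin at the same time, and their parts in any difference cannot be told apart. The WT-shSCR libraries, WT cells with the scrambled hairpin, did not enter the comparison.

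ARF binds MDM2, the ubiquitin ligase that degrades p53, and so allows p53 to accumulate and to switch on genes that stop the cell cycle, among them the Cdk inhibitor gene Cdkn1a. ARF also resides in the nucleolus and restrains the making of ribosomes. Ribosome profiling sequences the stretches of mRNA that ribosomes shield from nuclease, so a gene's footprint count reflects both how much of its mRNA a cell holds and how densely ribosomes occupy it. 5′-TOP mRNAs, which begin with a cytosine and a run of pyrimidines, encode ribosomal proteins and translation factors, and their translation follows mTOR signalling and the protein LARP1.

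The gene that both treatments aimed at was measured first. Cdkn2a spans 89274471 to 89294653 of chromosome 4 (GRCm38, GENCODE annotation) and is read from the minus strand. The coding part of exon 1β spans 89294334 to 89294523, that of exon 1α, which begins the INK4A transcript, spans 89281986 to 89282111, and the shared exon 2 codes up to 89276985, so a count per gene holds reads of both products. Cdkn2a had 40.1 and 34.6 CPM (footprint counts on genes scaled to a common library total and by edgeR's TMM factors) in the Arf-/- -shSCR replicates and 536 and 746 CPM in those labelled WT-shARF. Both libraries labelled WT-shARF were far above the knockout, with a difference of -4.10 on the log2 scale, knockout minus WT-shARF (standard error, SE, 0.14, adjusted p = 1.42e-12 by the quasi-likelihood test of edgeR with Benjamini-Hochberg adjustment). They were also above the 93.7 and 66.4 CPM of the WT-shSCR libraries on the scale of all 3 groups. The RNAseq libraries gave the same order, with 27.5 and 32.1 CPM in the knockout and 639.7 and 662 CPM in those labelled WT-shARF. A knockdown label goes against these levels, which hold INK4A as well as ARF reads, so the group is named by its label throughout and each direction is drawn from that label. In counts per gene an exchange of labels and a higher level of INK4A mRNA cannot be told apart. Citing earlier work, the study states that this hairpin leaves INK4A expression unchanged. It also reported the knockdown on protein by immunoblot, which these counts do not measure.

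Footprint reads on genes numbered 2787198 and 4800039 in the libraries labelled WT-shARF and 5100670 and 5157572 in the knockout, over 20661 genes. Between replicates Pearson's r of log10 counts was 0.958 over 10885 genes in the former and 0.968 over 10905 genes in the latter, and replicates of both groups differed by more than sampling noise. The fibroblast label was matched by Col1a1, collagen I, at 12430 CPM or more in all 4 libraries and by Vim, vimentin, at 8034 CPM or more. The epithelial markers Epcam and Cdh1 and the defining markers of endothelial and skeletal muscle cells were at or near 0 in every library. Footprints were at most 1.46 CPM for Epcam, at most 0.973 CPM for Cdh1, Cdh5 and Pecam1 and at most 1.09 CPM for Myod1, Myog and Ckm. Other defining markers of epithelium and mesothelium, among them Krt8 and Upk3b, were present and called higher in the knockout, as given below. Neither the labels nor the methods say that replicates were separate cultures, so p-values measure the spread between these libraries, which may be technical.

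Of 10941 genes tested, 430 had more and 470 had fewer footprints in Arf-/- -shSCR MEFs at an adjusted p under 0.05, which is 8.23% of the genes tested, 3.93% higher and 4.3% lower. The median size of a called change was a log2 of 0.70, with quartiles of 0.46 and 1.26, and 113 higher and 189 lower genes, 2.76% of those tested, also passed a log2 of 1. Called members of the ribosomal protein, nucleolar, smooth muscle and mesothelial lists were all or mostly higher in the knockout, and those of the collagen, p53 target and myeloid lists all or mostly lower, as counted for each list in turn. In 899 of the 900 called genes the replicates of the groups did not overlap, which was also the case in 50.2% of all genes tested. Where non-overlap is given below for a called gene, it therefore adds little to the call. The median over all genes tested was a log2 of 0.0027, with 5503 of 10941 genes above 0, so lists are read against a median near 0. Counts of called list members are likewise read against 3.93% called higher and 4.3% called lower.

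With the default estimate of the spread these counts were lost when a library labelled WT-shARF was left out. Without WT-shARF replicate 1 edgeR called 0 genes (743 higher and 710 lower at an unadjusted p under 0.05), and without its replicate 2 it called 0 higher and 1 lower (849 and 794), while its prior degrees of freedom for the spread fell from 15.9 to 2.91. With a robust estimate of the spread the same fits called 387 higher and 403 lower, and 408 higher and 462 lower, and DESeq2 called 101 and 94, and 94 and 96. Every gene called with all libraries and tested again kept its direction in each of these fits. Replicates of the groups did not overlap in 899 of the 900 called genes, so leaving out a library could hardly turn a direction. Called counts of single lists fell likewise under the default estimate, and for the p53 target, 5′-TOP, collagen, smooth muscle, myeloid and mesothelial lists the ranges with a robust spread and with DESeq2 are given. Among the lists with few calls, DESeq2 with each library left out in turn called 0 aminoacyl-tRNA synthetase genes, 0 to 1 lower ATF4 targets and 0 to 2 higher genes of cholesterol synthesis.

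**Figure D1:**
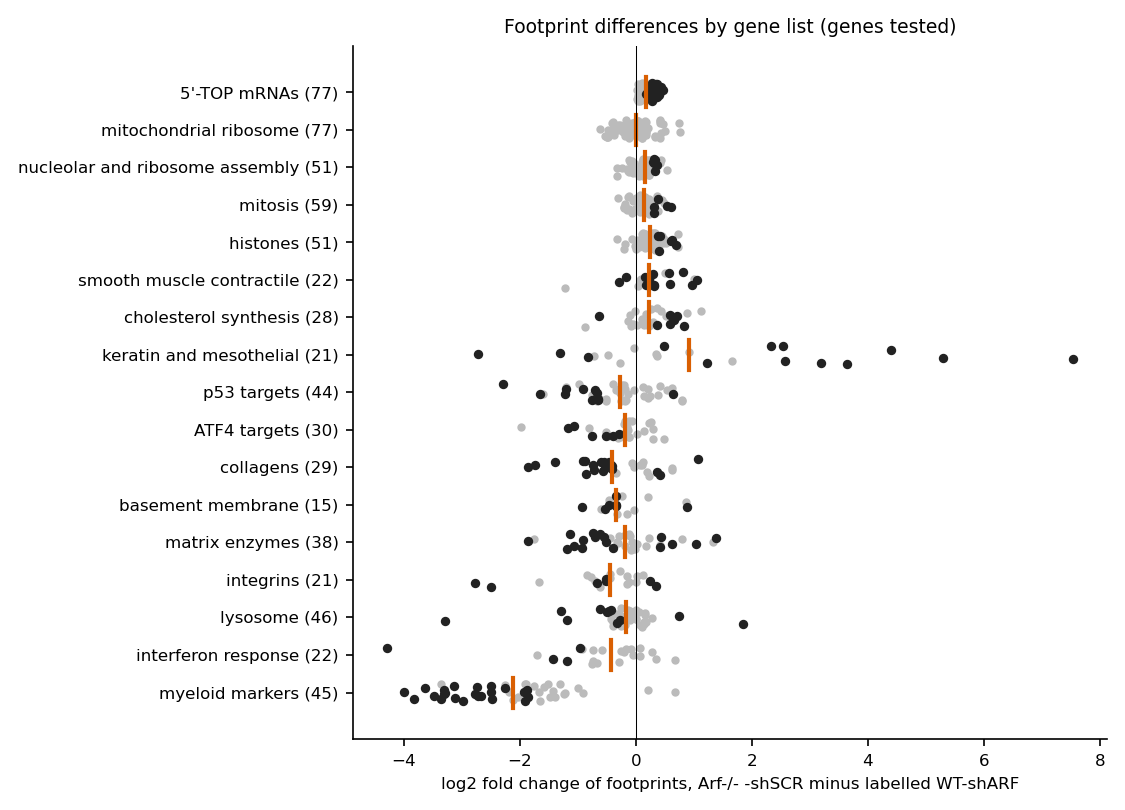
Log2 fold change of footprints (x axis, Arf-/- -shSCR minus the libraries labelled WT-shARF) for the members of 17 gene lists (y axis, number of genes tested in parentheses). Black points were called at an adjusted p under 0.05, grey points were not, and orange bars mark the median of each list. The 5′-TOP mRNAs all lie just above 0, the myeloid markers lie mostly below -1, and the keratin and mesothelial genes spread to both sides.

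Called Cdk inhibitors and most called p53 target genes had fewer footprints in the knockout than in the libraries labelled WT-shARF. Of 6 Cdk inhibitor genes tested, 3 were lower, namely Cdkn2a itself, Cdkn2b and Cdkn1a, and 0 higher. The p53 target list holds genes of the p53 pathway, Trp53 among them, as well as targets. Of its 44 genes tested, 10 were lower, 1 was higher and 33 were not called, with a median log2 of -0.28 against 0.0027 over all genes. Cdkn1a, which encodes the Cdk inhibitor p21 and is a classical p53 target, had 166 and 189 CPM in the knockout and 434 and 385 CPM in those labelled WT-shARF. The groups did not overlap, and Cdkn1a fell by 1.20 on the log2 scale (SE 0.10, adjusted p = 1.44e-07). Cdkn2b, the neighbour of Cdkn2a that encodes INK4B, had 22.02 and 25.9 CPM in the knockout against 70.4 and 65.3 CPM (log2 fold change -1.498, SE 0.18, adjusted p = 1.89e-05). Mdm2, which encodes the ligase that ARF inhibits and is itself induced by p53, had 82.8 and 89.1 CPM against 144 and 126 CPM (log2 fold change -0.65, adjusted p = 0.00348). Trp53, which encodes p53, had 319 and 306 CPM against 274 and 256 CPM, a difference that was not called (log2 fold change 0.24, adjusted p = 0.111).

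The other p53 targets called lower had log2 fold changes from -0.65 to -2.28. They were Pmaip1, which encodes the death-promoting protein NOXA, Phlda3, Sesn2, a negative regulator of mTORC1 that was also called lower among the regulators of 5′-TOP mRNAs, Eda2r, Pidd1, Abhd4, Epha2 and Cd80. Cd80, which had the largest of these falls, is also a surface protein of antigen-presenting cells and had 5.07 and 6.22 CPM in the knockout against 27.2 and 27.9 CPM. Apaf1, which forms the apoptosome, was the exception, with 47.9 and 55.4 CPM in the knockout against 37.0 and 30.2 CPM (log2 fold change 0.63, adjusted p = 0.0382). DESeq2 called 5 of the p53 targets lower and 0 higher, and with each library left out in turn 2 to 3 were lower in DESeq2 and 7 to 11 with a robust spread.

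Among 21 genes of the G1 phase, the D-type cyclins, which activate CDK4 and CDK6, were lower. Ccnd1 had 190 and 203 CPM in the knockout against 369.8 and 389 CPM (log2 fold change -0.95, SE 0.09, adjusted p = 1.005e-06). Ccnd3 fell by 0.90 and Ccnd2 by 0.38 on the log2 scale, with non-overlapping replicates in both. Cdk2, the kinase of the G1 to S transition that p21 inhibits, had 44.2 and 44.5 CPM against 28.3 and 27.7 CPM and was the single G1 gene called higher (log2 fold change 0.66, adjusted p = 0.0332). Of 59 mitosis genes 5 were higher and 0 lower (median log2 0.14), beside 3.93% of all genes called higher. Smc4, a condensin subunit, rose by 0.60 and Top2a, the topoisomerase of dividing cells, by 0.32. Of 52 DNA replication genes 1, the helicase subunit Mcm4, was higher and 0 lower (median 0.14). The calls of Cdk2 and Mcm4 were both lost in DESeq2, in thinned libraries and in the fit with all 3 groups, that of Cdk2 also in every fit without a library and that of Mcm4 with other scaling factors.

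**Figure D2:**
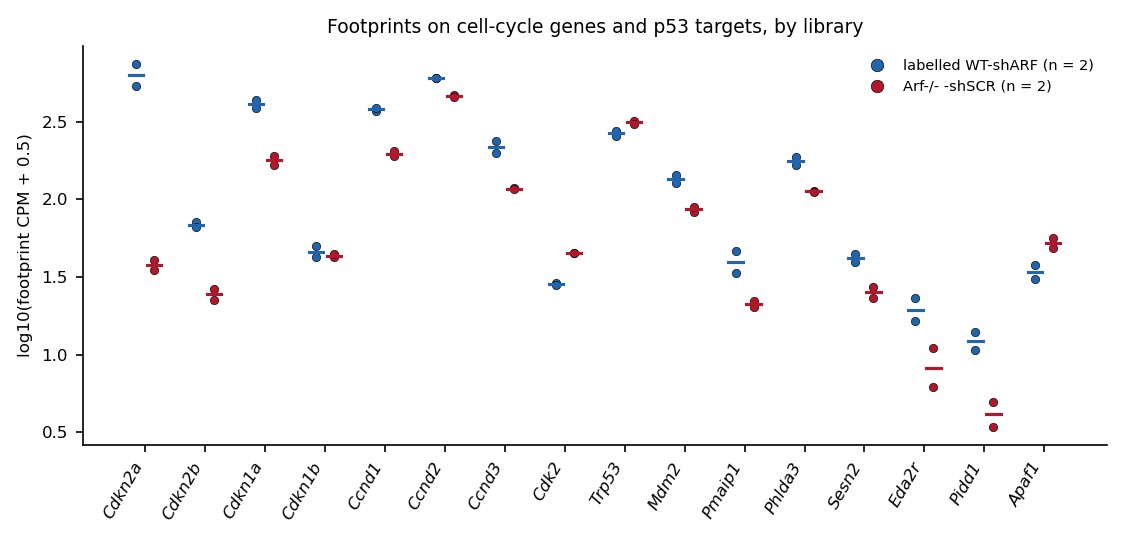
Footprints on cell-cycle genes and p53 targets in each library, as log10(CPM + 0.5) on the y axis, with the genes on the x axis. Points are the 2 libraries of each group and bars their mean. The libraries labelled WT-shARF lie above both knockout libraries for the Cdk inhibitors shown other than Cdkn1b, for the D-type cyclins and for the p53 targets shown other than Apaf1.

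The mRNAs of the 5′-TOP list, which was taken over from the study, had slightly more footprints in the knockout. Of 82 genes on the list, 79 were in the files and 77 were tested, of which 26 were higher and 0 lower, beside 3.93% of all genes called higher. The median log2 fold change was 0.17 and all 77 lay above 0, from 0.02 for Rpl22 to 0.47 for Rpl30. Summed over the list, footprints took 82240 and 82110 CPM in the knockout and 72060 and 72240 CPM in those labelled WT-shARF. Replicate sums were closer to each other than the sums of the groups, while single genes differed by 0.47 or less. With each library left out in turn, the median stayed between 0.16 and 0.18, and edgeR with a robust spread called 17 to 27 members, DESeq2 9 to 16 and the default edgeR fit 0 to 27.

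The start of a 5′-TOP mRNA carries the feature that names the class, and the starts of members called higher with a run of at least 10 bases are printed here as annotated by RefSeq on GRCm38.p6, from 10 bases before to 20 bases from the annotated start, with the pyrimidine run that covers the start in capitals. Rpl27a lies at chr7:109519185-109519214 (plus strand), Rpl14 at chr9:120571507-120571536 (plus), Rpl35a at chr16:33056472-33056501 (plus), Rpl38 at chr11:114668570-114668599 (plus), Rps6 at chr4:86857348-86857377 (minus) and Eef1a1 at chr9:78481705-78481734 (minus).
Rpl27a: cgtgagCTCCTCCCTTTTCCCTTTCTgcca
Rpl14: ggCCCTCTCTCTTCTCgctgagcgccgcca
Rpl35a: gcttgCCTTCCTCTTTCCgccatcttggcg
Rpl38: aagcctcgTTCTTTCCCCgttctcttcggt
Rps6: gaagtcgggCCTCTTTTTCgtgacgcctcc
Eef1a1: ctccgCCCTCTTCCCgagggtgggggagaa
Of the 77 genes tested, 57 had 65 entries in this annotation, and 14 entries (21.5%) held a run of at least 8 C or T over the annotated start, against 3.86% of all 32851 entries. An annotated start may lie away from the start used in MEFs, so an entry without a run says only that these letters are not there. For the same reason a run in capitals, in any gene printed here, need not be the 5′-TOP motif of the mRNA. Runs of 9 to 21 bases occurred in members whose log2 fold change was as small as 0.03 (Rpl35) and as large as 0.41 (Rpl27a).

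Rpl30, a protein of the large subunit, had 678 and 690 CPM in the knockout and 487 and 503 CPM in those labelled WT-shARF (log2 fold change 0.47, SE 0.07, adjusted p = 0.000266). Rpl5, which carries 5S rRNA and binds MDM2 when ribosome assembly is disturbed, had 1469 and 1665 CPM against 1109 and 1209 CPM (0.43, SE 0.07, adjusted p = 0.00035). Npm1, the nucleolar chaperone that holds ARF in the nucleolus, had 1989 and 2000 CPM against 1538 and 1570 CPM (0.36, SE 0.05, adjusted p = 0.000195). In each of these genes both knockout libraries were above both of the others.

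The genes that the study followed beside these libraries did not all move alike. Tpt1, which encodes the growth-associated protein TCTP, had 1093 and 999 CPM in the knockout against 823 and 746 CPM (log2 fold change 0.42, adjusted p = 0.000816), and Pabpc1, the poly(A)-binding protein, had 787 and 822 CPM against 691 and 655 CPM (0.26, adjusted p = 0.022). Eef2, the factor that moves the ribosome along the mRNA, Rpl23a and Rpl22 were not called, with log2 fold changes of 0.03, 0.12 and 0.02 and adjusted p of 0.742, 0.351 and 0.934. Larp1 encodes a protein that the study describes as both a repressor and an enhancer of 5′-TOP translation. Larp1 had 148 and 144.5 CPM against 171 and 147 CPM, and the groups overlapped (-0.11, adjusted p = 0.636). These 16 genes, of which 2 were higher and 3 lower, were taken because the study names them and are no independent evidence of a direction.

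**Figure D3:**
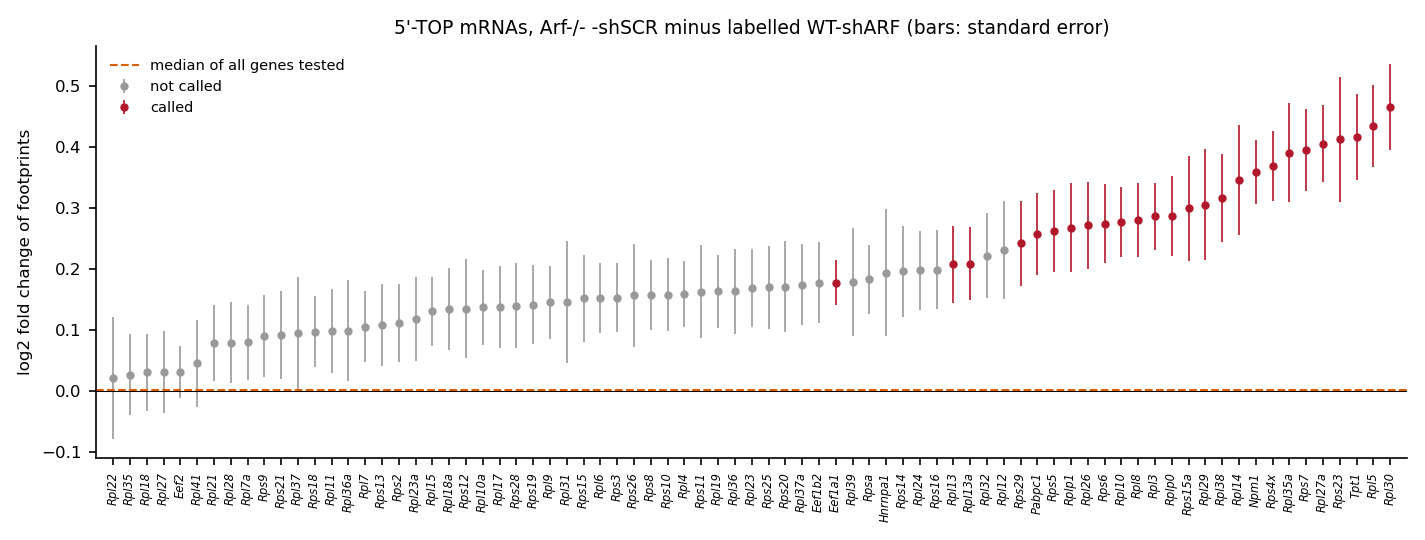
Log2 fold change of footprints (y axis, Arf-/- -shSCR minus the libraries labelled WT-shARF) of the 77 5′-TOP genes tested, ordered by size along the x axis, with the standard error as bars. Called genes are red, the others grey, and the dashed line is the median of all genes tested. All 77 values are above 0 and none exceeds 0.47.

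Proteins of the cytosolic ribosome form the greater part of the 5′-TOP list. Of 48 large-subunit genes 16 were higher and 0 lower, and of 32 small-subunit genes 8 were higher and 0 lower, with medians of 0.16 and 0.17. The largest rise among them was that of Rpl22l1, the paralogue of Rpl22, at 0.73 (60.6 and 71.4 CPM against 46.8 and 33.8 CPM, adjusted p = 0.0183). Many ribosomal protein genes have near-identical processed copies, and 46.34% to 52.92% of footprint alignments were not unique and were left uncounted, so levels of single members are uncertain. Of 77 genes of the mitochondrial ribosome, which are not 5′-TOP mRNAs, edgeR and DESeq2 called 0 in either direction (4 higher and 7 lower at an unadjusted p under 0.05), with a median of 0.0032.

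Beyond the ribosome itself, 6 of 51 nucleolar and ribosome assembly genes were higher and 0 lower (median log2 0.16). Of 59 translation factor genes 4 were higher and 0 lower (median 0.05). Over all genes tested 3.93% were called higher and 4.3% lower. Ncl, which encodes nucleolin, had 1697 and 1740 CPM in the knockout against 1326 and 1392 CPM (0.34, adjusted p = 0.000702). Eif4a1, the helicase of the cap-binding complex, had 2073 and 2152 CPM against 1553 and 1521 CPM (0.46, SE 0.05, adjusted p = 1.38e-05). Eif3e, a subunit of the eIF3 complex, and Eif4g2, a cap-independent relative of eIF4G, were higher by 0.55 and 0.34. Of 20 aminoacyl-tRNA synthetase genes 0 were higher and 3 lower, namely Aars, Wars and Yars, with log2 fold changes from -0.37 to -0.53. Among 26 regulators of 5′-TOP translation, Tia1, an RNA-binding protein of stress granules, was higher by 1.44, and Akt1s1, which encodes the mTORC1 inhibitor PRAS40, was lower by 0.78 on the log2 scale, beside Sesn2.

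Collagens, the main fibres of the extracellular matrix, had fewer footprints in the knockout. Together they held 33130 and 33240 CPM in the knockout and 48820 and 48730 CPM in those labelled WT-shARF. Of 29 collagen genes tested 16 were lower and 3 higher, with a median log2 of -0.42, beside 4.3% of all genes called lower. Col1a1, the main chain of fibrillar collagen I, had 13040 and 12430 CPM against 20970 and 21190 CPM (log2 fold change -0.73, SE 0.03, adjusted p = 1.2e-10). Col1a2, Col3a1, Col5a1 and Col11a1, further fibrillar chains, fell by 0.52, 0.40, 0.73 and 0.87 on the log2 scale, and the network-forming Col4a1 and Col4a2 by 0.60 and 0.43. Leaving out any library kept the median between -0.44 and -0.30 in all fits, while the number called lower ranged from 13 to 16 with a robust spread, from 12 to 13 in DESeq2 and from 0 to 16 in the default edgeR fit.

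The 3 collagens called higher in the knockout were chains of collagen VI, which forms beaded filaments around cells. Col6a3 had 949.6 and 976 CPM in the knockout and 474 and 439 CPM in those labelled WT-shARF (log2 fold change 1.08, SE 0.07, adjusted p = 1.24e-08). Col6a1 and Col6a2, named after their values were seen, rose by 0.36 and 0.41 (adjusted p = 0.0164 and 0.0109). For all 3 chains both knockout libraries were above both of the others, in the opposite direction to the fibrillar chains.

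Called genes of the other matrix lists were mostly lower as well. Fn1, which encodes fibronectin, had 8031 and 8522 CPM in the knockout against 13590 and 12210 CPM (-0.64, SE 0.05, adjusted p = 2.9e-08), and Sparc, a collagen-binding glycoprotein, fell by 0.53. Of 15 basement membrane genes 6 were lower and 1 higher, with Lama4, the α4 chain of laminin, at 0.88 against Lama2 at -0.92. Of 38 genes for matrix enzymes and their inhibitors 12 were lower and 5 higher. Mmp2, a gelatinase, fell by 0.70 and Pcolce, which helps to trim procollagen, by 0.73, whereas Plau, the urokinase plasminogen activator, had 243 and 249 CPM in the knockout against 118 and 122 CPM (log2 fold change 1.03, adjusted p = 2.16e-06). Serpinh1, the collagen chaperone HSP47, was 1 of 4 lower genes among 26 of the endoplasmic reticulum (-0.43, adjusted p = 3.33e-06). Of 18 fibroblast genes 6 were lower, 5 of them matrix genes, and 2 were higher.

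Most called contractile genes of smooth muscle, many of which MEFs express, were higher in the knockout. Of 22 genes tested 11 were higher and 2, Csrp1 and Actn1, were lower, with a median log2 of 0.23. Acta2, smooth muscle α-actin, had 12400 and 12720 CPM in the knockout and 8712 and 8083 CPM in those labelled WT-shARF (log2 fold change 0.58, SE 0.04, adjusted p = 1.93e-08). Cnn1, calponin, had 928 and 913 CPM against 521 and 424 CPM (0.97, SE 0.08, adjusted p = 3.48e-07). Myh11, smooth muscle myosin, rose by 1.05 and Des, the filament protein desmin, by 0.82, while Tagln rose by 0.15. The replicates of the groups did not overlap in any of these genes, as in 899 of the 900 called genes and 50.2% of all genes tested. With each library left out in turn, 8 to 10 members were called higher with a robust spread and 5 to 8 in DESeq2.

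Called markers of macrophages and other myeloid cells were all lower in the knockout. Of 73 listed genes in the files 45 were tested, and of these 23 were lower and 0 higher, with a median log2 of -2.11. A gene could pass the filter on low counts through the libraries labelled WT-shARF alone, and of the 19 with at least 10 counts in every library 15 were lower and 0 higher. Their summed level was 180 and 184 CPM in the knockout and 832 and 710.3 CPM in those labelled WT-shARF. Csf1r, the receptor for the macrophage growth factor CSF1, had 7.01 and 9.34 CPM in the knockout against 51.5 and 52.8 CPM (log2 fold change -2.67, SE 0.24, adjusted p = 5.29e-07). Of the other defining markers, Itgam had 5.26 and 5.45 CPM against 32.3 and 28.6 CPM, Tyrobp 0.39 and 1.17 CPM against 13.4 and 6.88 CPM, and Ptprc 3.70 and 1.36 CPM against 10.9 and 8.76 CPM, and all 3 were called. Adgre1 had 3.31 and 5.25 CPM against 10.2 and 10.0 CPM and was not called (-1.23, adjusted p = 0.125). No defining marker was at 0 in either group, and the groups did not overlap in any of the 5, as in 50.2% of all genes tested. With each library left out in turn, 19 to 23 members were called lower with a robust spread and 1 to 14 in DESeq2.

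Further called myeloid genes were Lyz2, lysozyme, with 18.9 and 30.1 CPM in the knockout against 101 and 83.7 CPM, Lcp1, an actin bundler of blood cells, with 8.77 and 8.95 CPM against 59.5 CPM in both libraries labelled WT-shARF, and the complement genes C1qa, C1qb and C1qc, which fell by 2.47, 3.30 and 3.11 on the log2 scale. In bulk libraries fewer cells of a type and less RNA per cell cannot be told apart. Genes of this list also stood among the calls of other lists, namely Itgam and Itgb2 among the 5 lower of 21 integrins and Ctss among the 9 lower of 46 lysosome genes. The part of myeloid cells in any other difference was not tested.

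**Figure D4:**
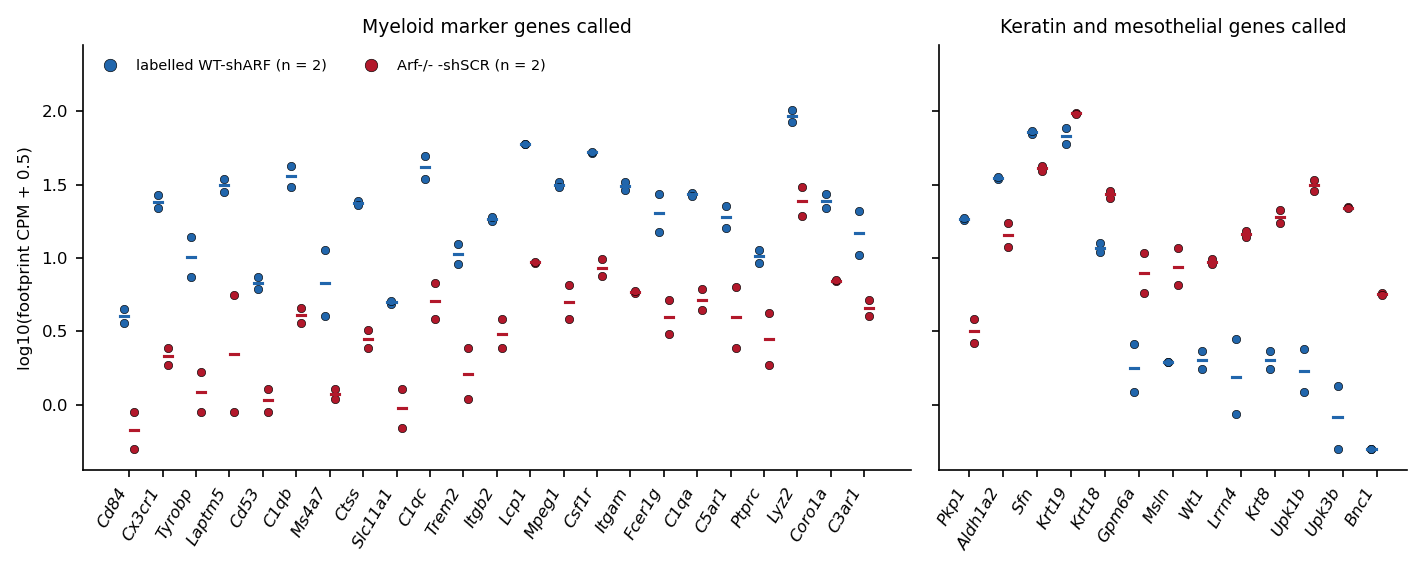
Footprints of called myeloid marker genes (left) and called keratin and mesothelial genes (right) in each library, as log10(CPM + 0.5) on the y axis, with the genes on the x axis ordered by log2 fold change. Points are the 2 libraries of each group and bars their mean. All 23 myeloid genes lie higher in the libraries labelled WT-shARF, and 10 of the 13 keratin and mesothelial genes lie higher in the knockout.

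Genes of the mesothelium and simple epithelium were called in both directions. Of 21 such genes tested 10 were higher and 3 lower, with a median log2 of 0.91. Upk3b, a mesothelial surface protein, had 21.6 and 21.4 CPM in the knockout and 0 and 0.834 CPM in those labelled WT-shARF (log2 fold change 5.29, SE 0.57, adjusted p = 6.35e-06). Upk1b had 33.5 and 28.2 CPM against 0.726 and 1.88 CPM (4.40, adjusted p = 8.48e-07), and Krt8, a keratin of simple epithelia, had 16.8 and 20.8 CPM against 1.81 and 1.25 CPM (3.65, adjusted p = 4.035e-05). Lrrn4, Msln and Wt1, further genes of the mesothelium, rose by 3.19, 2.53 and 2.58. Bnc1, a transcription factor gene of the mesothelium, had 27 and 26 counts in the knockout and 0 counts in both other libraries, which is at least 6.02-fold higher when 3 counts are taken as the floor of each library.

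Levels of these genes were low, and a gene high in the knockout alone could still enter the test. With at least 10 counts demanded in every library, 10 members remained, of which 2 were higher and 3 lower, and the median went from 0.91 to -0.26. With each library left out in turn, 6 to 12 were called higher with a robust spread and 0 to 2 in DESeq2. Pkp1, Aldh1a2 and Sfn, all called lower, had 2.14 to 42.1 CPM in the knockout and 17.8 to 73.4 CPM in those labelled WT-shARF. The list as a whole summed to 687 and 711 CPM in the knockout against 564 and 588 CPM, most of it in members that both groups express. The part of mesothelial cells in any other difference was not tested.

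Other cell types left fewer traces. Of 4 endothelial genes tested edgeR and DESeq2 called 0 (0 higher and 0 lower at an unadjusted p under 0.05), and of 5 neural genes 2 were lower, among them Nes, the filament protein nestin, at 193 and 169.6 CPM against 524 and 473 CPM (-1.46, SE 0.09, adjusted p = 1.004e-08). Sox2 and Sox10, which define neural progenitors and neural crest, stayed at 1.81 CPM or less. Tubb3, also taken as a defining neural marker, passed the edgeR filter on low counts and was not called (log2 fold change -0.06, adjusted p = 0.865). Of 26 Hox genes, which mark position along the body axis, edgeR and DESeq2 called 0 (1 higher and 1 lower at an unadjusted p under 0.05).

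Growth factor and signalling genes changed in both directions, beside 3.93% of all genes called higher and 4.3% called lower. Igf2, a fetal growth factor, had 772 and 789.5 CPM in the knockout against 424 and 438 CPM (log2 fold change 0.86, SE 0.07, adjusted p = 1.78e-07). Of 18 genes of the IGF system 2 were higher and 5 lower. Of its binding proteins Igfbp7 was lower at -0.99 and Igfbp2 at -1.17, Igfbp6 was higher at 0.85, and Pappa, a protease of binding proteins, was lower at -1.10. In the TGF-β list 3 of 37 genes were higher and 6 lower, with Fst, which encodes the activin trap follistatin, at 1.61 and the receptor gene Tgfbr1 at 1.52. Pdgfra, a growth factor receptor of mesenchyme, had 22.99 and 21.6 CPM in the knockout against 7.26 and 6.47 CPM (1.71, adjusted p = 0.002035), and Pdgfrb moved the other way (-0.42). Of 21 chemokine and inflammation genes 6 were higher and 5 lower, among them Ptgs2, the inducible cyclooxygenase, with 784 and 844 CPM against 423 and 409 CPM (0.97, adjusted p = 5.04e-08), and Il1rl1, the IL-33 receptor, at 1.57.

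Metabolic and stress genes were called in both directions, beside 3.93% of all genes called higher and 4.3% called lower. Of 28 cholesterol genes 6 were higher, namely the enzyme genes Hmgcs1, Idi1, Fdps, Fdft1, Lss and Msmo1 at 0.36 to 0.84. Of 30 targets of the stress factor ATF4 0 were higher and 6 lower, among them Asns, Psph and Slc7a1, which make or import amino acids, at -0.39, -1.06 and -0.52. Of 46 lysosome genes 9 were lower and 2 higher, and of 22 interferon response genes 4 were lower and 0 higher. Of 75 genes of oxidative phosphorylation 2 were higher and 0 lower, with a median of -0.0029.

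Among the single genes with the largest changes, a lone library set the size of the value in 3, and the call in Ccdc158. Ccdc158 had 1484 and 16 counts in the knockout against 7 and 7 counts, and without knockout replicate 1 its log2 fold change went from 6.27 to 0.68 (adjusted p = 0.839). Sv2a, which encodes a synaptic vesicle protein, had 815 and 15 counts in the libraries labelled WT-shARF against 5 and 8 counts. Without WT-shARF replicate 1 its log2 fold change went from -6.80 to -1.29. The default fit without that library lost the calls of all genes, so it cannot tie the call of Sv2a to that library. Zc3h12c, which encodes a zinc finger RNase, had 329 and 2708 counts in the knockout against 44 and 184 counts, and without knockout replicate 2 its log2 fold change went from 3.36 to 1.17 and was still called (adjusted p = 7.61e-05). In the RNAseq libraries the same replicate stood out in each of these genes, with 399 against 1.29 CPM for Ccdc158, 504 against 1.39 CPM for Sv2a and 4287 against 476 CPM for Zc3h12c.

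The other large rises were named only where both knockout libraries were above both of the others. Fsd1 had 38 and 45 counts in the knockout and 0 in both other libraries, at least 9.42-fold higher at the same floor of 3 counts per library. Gata4, a transcription factor of heart and mesothelium, had 3.70 and 8.56 CPM against 1.09 and 0.209 CPM (log2 fold change 3.41, adjusted p = 0.0192), and Aldh1a1, a retinaldehyde dehydrogenase, had 15.2 and 11.5 CPM against 2.90 and 1.25 CPM (2.78, adjusted p = 0.002). Ptges, Slc5a7 and Penk rose by 3.26, 2.92 and 2.82 from 0 to 6 counts in the libraries labelled WT-shARF. Among the large falls outside the myeloid list, Crct1, a gene of cornified epithelium, had 0.779 and 0.584 CPM in the knockout against 19.6 and 23.4 CPM (-4.93, SE 0.49, adjusted p = 2.24e-06). Ms4a6d, Hcls1, Fermt3 and Nckap1l, genes of blood cells that were not on the myeloid list, had log2 fold changes of -4.22, -3.595, -3.41 and -3.16.

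The neighbourhood of Cdkn2a was examined because a targeted allele can carry flanking DNA of the strain it was made in. Within 10 Mb of the gene on chromosome 4, 36 genes other than Cdkn2a were tested, of which 2 were higher and 2 lower, or 11.1% called beside 8.23% over all genes. Within 5 Mb it was 3 of 15, within 20 Mb 8 of 94 (8.51%) and over the whole chromosome 61 of 696 (8.76%). The 4 genes called within 10 Mb were Cdkn2b, Plin2, which coats lipid droplets and fell by 1.23 (119 and 110.5 CPM against 266 and 270 CPM), Snapc3 and the ribosomal protein gene Rps6. Mtap, the gene next to Cdkn2a on its other side, was named after its values were seen and was not called, with 212 and 224 CPM in the knockout against 199.9 and 205 CPM.

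Most called footprint differences had an RNA difference in the same direction. A second fit took in the 4 RNAseq libraries of the same groups and asked, gene by gene, whether the footprint difference exceeded the RNA difference. Of 426 genes with more footprints that this fit held, 374 had more RNA as well and 129 of them were called in RNA, and of 463 genes with fewer footprints 429 had less RNA and 171 were called. The RNA difference was called for 5.03% of the 11632 genes in this fit, 2.71% higher and 2.32% lower. RNA in the opposite direction was called for 2 genes, both among those with more footprints. In the genes with more footprints the median log2 was 0.37 in RNA, beside a median size of 0.62 in footprints. In those with fewer footprints it was -0.57 in RNA, beside a size of 0.78. These genes were chosen by their footprints, not by their RNA. Across genes, which are not independent replicates, Pearson's r between the log2 fold changes was 0.466 over 10764 genes and 0.783 over the 889 genes called in footprints.

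A footprint difference beyond that of RNA was called for 5 genes, 0.043% of those tested, 2 higher (0.0172%) and 3 lower (0.0258%). With 2 libraries per group in each assay, a gene that was not called may still differ beyond RNA. At an unadjusted p under 0.05 there were 431 higher and 449 lower genes, and DESeq2 called 13 higher and 14 lower. Without knockout replicate 1 edgeR called 31 and 94, without knockout replicate 2 it called 4 and 6, and without either library labelled WT-shARF 0 and 1. Tpt1 was the 5′-TOP gene among the 5. Its RNA was lower in the knockout (351 and 323 CPM against 488 and 430 CPM) while its footprints were higher, which left 0.87 on the log2 scale beyond RNA (SE 0.14, adjusted p = 0.0159). For Pabpc1, the other gene with opposite calls, the value was 0.79 (adjusted p = 0.117). Over the 77 5′-TOP genes the median beyond RNA was 0.08 with 55 of 77 above 0, beside 0.0021 and 5839 of 11632 over all genes, and the median of their RNA differences was 0.11.

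Atp6v1c2, a subunit of the proton pump of acidic organelles, had 12.3 and 12.2 CPM of footprints in the knockout against 96.9 and 80.1 CPM, while its RNA was 394 and 458 CPM against 918 and 671 CPM (-1.93 beyond RNA, SE 0.22, adjusted p = 4.37e-05). Col7a1, the anchoring fibril collagen, had 53.6 and 47.9 CPM of footprints against 174 and 192 CPM and 105 and 117 CPM of RNA against 168 and 190.4 CPM (-1.14, SE 0.20, adjusted p = 0.0181). Zdhhc15, a palmitoyltransferase gene, was higher beyond RNA by 2.65 (adjusted p = 0.0346) on 50 and 15 footprint reads against 14 and 16, so the footprints overlapped, while its RNA was 50.7 and 57.4 CPM against 260 and 173 CPM. Without knockout replicate 1 it was 1.46 and no longer called.

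Hist1h2bb, a histone H2B gene, had footprints of 155 and 148 CPM in the knockout against 188 and 163 CPM, a difference that was not called, with RNA of 362 and 512 CPM against 233 and 222 CPM (-1.14 beyond RNA, SE 0.19, adjusted p = 0.0159). Histone genes as a list lay off the line of equal change. Of 53 in this fit 42 were higher and 0 lower in RNA, where the median log2 was 1.01, whereas of 51 tested for footprints 6 were higher and 0 lower with a median of 0.25. Histone genes are nearly identical in sequence, and 79.22% to 81.38% of alignments in the RNAseq libraries, which were made from rRNA-depleted RNA, were not unique and were left uncounted, so their levels are uncertain in both assays.

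**Figure D5:**
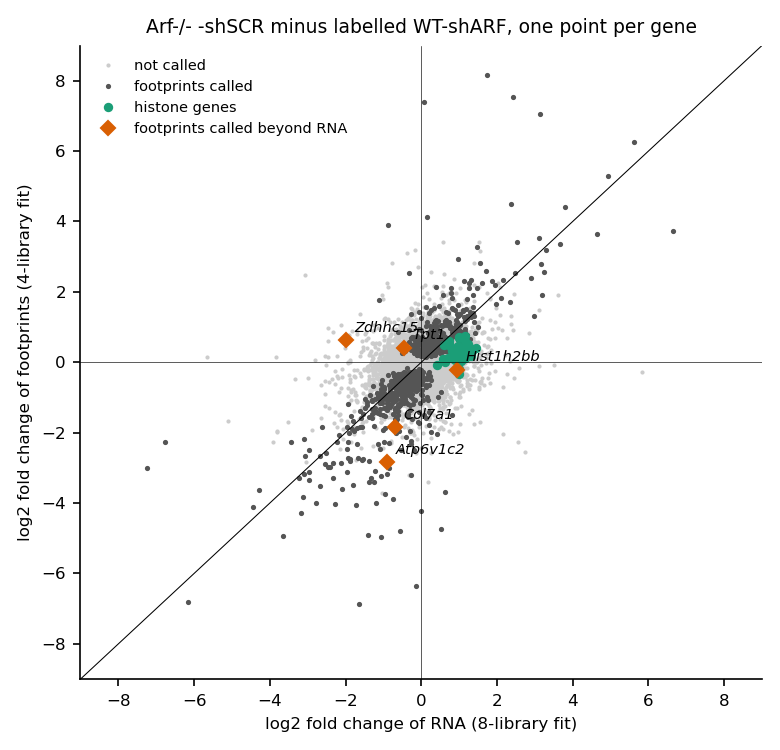
Log2 fold change of RNA (x axis) and of footprints (y axis), Arf-/- -shSCR minus the libraries labelled WT-shARF, with 1 point for each of the 10764 genes in both fits and a line of equal change. Dark points were called in footprints, green points are histone genes and orange diamonds are the 5 genes called beyond RNA. Histone genes lie to the right at small footprint differences, with a median of 1.01 for RNA and 0.25 for footprints.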

How the data were processed

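Raw read counts per gene were used as deposited for 4 ribosome profiling and 4 RNAseq libraries of Arf-/- -shSCR and WT-shARF MEFs, 2 of each kind per group. To make them the authors clipped adapters (fastx_clipper), split barcodes, took off UMIs (UMI-tools), removed rRNA and other noncoding RNA (Bowtie2), aligned to mm10 (TopHat) and counted reads on coding sequence (HTSeq). Footprints were cut with RNase T1, removal of duplicates by UMI is not given in the sources used here, and yeast spike-in reads were not used, so differences are relative to the library. The 5 summary rows of each file, which name no gene, were left out (reads on no feature 9.41% to 10.62% in footprints).

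Genes passing edgeR's filterByExpr were tested with TMM factors and the quasi-likelihood test of edgeR, with p-values adjusted by Benjamini-Hochberg (edgeR 4.0.16 and limma 3.58.1 in R 4.3.3), a call being an adjusted p under 0.05. The 4 footprint libraries formed 1 fit. The 8 libraries of both assays formed another, whose interaction term gave footprint differences beyond RNA. DESeq2 1.42.0, other scaling factors, filters, thresholds, thinning, a replicate block and leaving out each library were alternatives, and a robust spread and DESeq2 without each library were added after the data were seen. Python 3.11.15, numpy 2.4.6, pandas 2.3.3 and scipy 1.17.1 made the summaries, and the fits were tested on simulated data. With 2 libraries per group an exact permutation test of a single gene cannot go below 0.33, so none is given. Where a gene had 0 counts in a group, a floor of 3 counts per library was used, and such bounds cover counting error only.

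Members and gene lists were chosen with earlier results of these data known, and the lists of imprinted and of matricellular genes were added later. Genes were named by rule: the 12 largest rises and 12 largest falls among called genes with non-overlapping replicates and a mean of at least 30 counts in the higher group, the genes that the study names, up to 4 called members of each list by adjusted p, up to 5 genes per direction called beyond RNA, up to 6 called genes within 10 Mb of Cdkn2a, and the defining markers of other cell types. Other names were chosen after their values were seen. Replicates share a number across groups in the labels, but nothing says that a number marks a shared batch, and no pairing was assumed. Gene positions came from GENCODE on GRCm38, matched by symbol for 19915 and by older symbol for 614 of 20661 genes, and start sites from RefSeq on GRCm38.p6. The result for 1 of the called genes is not reported here.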

Additional observations from a re-analysis of the deposited data

How the results depend on the processing

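With DESeq2, 265 genes were higher and 288 lower in footprints, at an adjusted p under 0.01 edgeR gave 180 and 220, and with a log2 fold change over 1 as well 113 and 189. Other scaling factors, filters, thinning, a robust spread and a fit with all 3 groups stayed within 1.5 times of 430 and 470, and each gene called and tested again kept its direction. Leaving out 1 library in turn gave 0 to 384 higher and 0 to 397 lower genes, or 285 to 408 and 356 to 462 with a robust spread, while DESeq2, which adjusted over 3197 to 9878 genes, gave 121 and 110 without knockout replicate 1, 62 and 124 without its replicate 2, 101 and 94 without WT-shARF replicate 1, and 94 and 96 without its replicate 2. The loss of calls in the default fit without a library labelled WT-shARF, to 0 or 1 gene, went with a fall of the prior degrees of freedom from 15.9 to 2.91. For footprints beyond RNA, DESeq2 gave 13 higher and 14 lower genes, no filter on low counts 26 and 51, an adjusted p under 0.01 gave 0 and 1, the added fold threshold 1 and 3, and leaving out 1 library 0 to 31 and 1 to 94. The cause of the other changes was not tested. No alternative turned the direction of a called gene, for which non-overlapping replicates in 899 of the 900 called genes left little room. With at least 10 counts in every library the median of the keratin and mesothelial list went from 0.91 to -0.26.

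With a block for the replicate number, 542 genes were higher and 567 lower in footprints, and 3 higher and 5 lower beyond RNA. Deviations of same-numbered libraries from their group means correlated at 0.0318 over 10941 genes, and at 0.0474 over the 7558 with at least 30 counts in every library. A low correlation cannot exclude a shared batch, so whether equal numbers mark one is not known. Depth limits low genes most, since the smallest library held 2787198 footprint reads on genes, and in bulk MEFs of differing strain no alternative separates genotype, strain and hairpin.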

Other observations

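Imprinted genes, which are expressed from the copy of a single parent and many of which act on fetal growth, formed a list added after the data were seen. Of 23 tested 7 were higher and 1 lower in the knockout, with a median log2 of 0.34, beside 3.93% and 4.3% of all genes. As the list was made with the data known, its counts are no independent evidence. Dlk1, a membrane ligand related to Notch ligands, had 172 and 181 CPM in the knockout against 39.5 and 41.1 CPM in those labelled WT-shARF (log2 fold change 2.12, SE 0.13, adjusted p = 1.004e-08). Grb10, an adaptor that dampens insulin and IGF signalling, had 772 and 796 CPM against 398 and 369 CPM (1.03, adjusted p = 2.85e-08). Nnat, Mest, Peg10 and Slc38a4 rose by 2.60, 1.00, 0.62 and 0.50, and Igf2r, the receptor that clears IGF2, fell by 0.56. Both knockout libraries lay on 1 side of the others for each of these, as in 899 of the 900 called genes and 50.2% of all genes tested. With a robust spread and each library left out in turn, 5 to 8 members were called higher and 1 lower, and in DESeq2 3 to 4 and 1.

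Matricellular and other glycoproteins of the matrix, the second list added later, were split, with 13 of 38 lower and 6 higher. Over all genes 4.3% were called lower and 3.93% higher, and the counts of this list are no independent evidence either. Thbs1, thrombospondin 1, had 19870 and 21390 CPM in the knockout against 33620 and 32430 CPM and was among the genes with the most footprints (-0.68, SE 0.03, adjusted p = 3.31e-10). Fbn1, fibrillin 1, Postn, periostin, and Cspg4, the proteoglycan NG2, fell by 0.82, 0.73 and 1.21. Nov, a CCN family protein, had 91.0 and 106 CPM against 26.5 and 30.2 CPM (1.79, adjusted p = 1.005e-06).

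Smaller numbers were called in further lists, beside 3.93% of all genes called higher and 4.3% called lower. Of 36 proteasome genes 4 were higher and 0 lower (median log2 0.11), and of 21 immediate early genes 2, Egr1 and Nr4a1, were higher at 0.92 and 1.32 and 0 lower. Of 30 genes controlled by NRF2 1 was higher and 3 lower, with Hmox1, heme oxygenase, at -0.70.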
